A study of Homo sapiens with 36 samples.

Results

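The Mir-17 family guide strands are the mature miRNAs listed under Hsa-Mir-17- in MirGeneDB names without the asterisk that marks a passenger strand. They made up 7 of the 135 mature miRNAs with deposited values, and all 7 were followed through all 12 conditions. The conditions are the cell lysate (input) and the anti-HA immunoprecipitate (IP) of HEK293T cells, an established human embryonic kidney line, that had been co-transfected with pEGFP-C1 and with Flag/HA-tagged AGO2 as WT, F182del, N359H, G604R or D619N, or with the Flag/HA-empty vector. Each condition had 3 replicates, which gives 36 libraries. AGO2 was expressed from a plasmid, the labels name no deletion of the AGO2 of the cells themselves, and nothing states that replicates came from separate cultures, so p-values measure the spread between these samples, which may be technical. Small RNA reads do not measure the AGO2 transcript, and whether the tagged proteins were at equal levels was not analysed here.

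AGO2 is the Argonaute protein that holds a miRNA guide and uses it to find mRNAs. The guide pairs with its targets mainly through the seed, bases 2 to 8 from its 5′ end, and the other strand of the duplex, the passenger, is usually discarded. The Mir-17 family comes from related polycistronic clusters that proliferating cells and many tumours express at a high level. Its members repress regulators of the cell cycle, among them CDKN1A and E2F1.

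The sequences are shown because the members differ by a few bases only, so that both the shared seed and the positions at which reads can be told apart are visible. All 7 members were matched to mature sequences of RefSeq on GRCh38.p14, by a pairing of MirGeneDB and miRBase names that is general knowledge and is not given in the deposited values. Capitals mark bases 2 to 8.
Hsa-Mir-17-P1a_5p (miR-17-5p): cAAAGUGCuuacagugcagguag
Hsa-Mir-17-P4a_5p (miR-20a-5p): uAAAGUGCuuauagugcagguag
Hsa-Mir-17-P1c_5p (miR-106a-5p): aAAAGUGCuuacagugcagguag
Hsa-Mir-17-P1d_5p (miR-106b-5p): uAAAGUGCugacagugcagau
Hsa-Mir-17-P4d_5p (miR-93-5p): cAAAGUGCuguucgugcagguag
Hsa-Mir-17-P2a_5p (miR-18a-5p): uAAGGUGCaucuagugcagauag
Hsa-Mir-17-P1d_3p (miR-106b-3p): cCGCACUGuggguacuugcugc

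The seed AAAGUGC was shared by 5 members, while miR-18a-5p differed from it by the substitution A4G against miR-17-5p, counted from the 5′ end. The strand miR-106b-3p is the other arm of the hairpin of miR-106b-5p and has a different seed, CGCACUG, and MirGeneDB gives neither arm an asterisk. The closest pair was miR-17-5p and miR-106a-5p, which differ by C1A alone over 23 bases, so reads that lack the first base cannot be told apart and the values of miR-106a-5p are uncertain. Between miR-17-5p and miR-20a-5p there are 2 differences, C1U and C12U. Between miR-20a-5p and miR-93-5p there are 4, U1C, U10G, A11U and A13C. No member had values identical to those of another row.

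The members lie in 3 clusters. On chromosome 13, miR-17-5p (chr13:91350618-91350640), miR-18a-5p (chr13:91350756-91350778) and miR-20a-5p (chr13:91351072-91351094) lie on the plus strand in an exon of a transcript of MIR17HG, the host gene of the miR-17~92 cluster, in GENCODE release 29. On chromosome X, miR-106a-5p (chrX:134170244-134170266) lies on the minus strand in an exon of the processed transcript AC002407.1. On chromosome 7, miR-106b-5p (chr7:100094043-100094063), miR-106b-3p (chr7:100094002-100094023) and miR-93-5p (chr7:100093815-100093837) are encoded by the minus strand within an intron of MCM7, which codes for a subunit of the replicative helicase. Coordinates are those of GRCh38.

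Depth limited what could be seen of these members. Reads on mature miRNAs numbered 446 to 12040 per input library and 1150 to 30793 per IP library of the 5 AGO2 groups, but 174 to 202 in the IP of the empty vector, and the family took 4 to 252 reads per AGO2 IP library and 6 to 307 per input library of the AGO2 groups. Of 252 member values, 81 were at 0, of which 53 were in IP, and 47 stood on 1 to 3 reads. The 53 include the empty vector IP, where only miR-93-5p had reads, in 1 library. Only 3 values stood on exactly 1 read. How low values were treated before deposition is not given in the sources used here, so a value at 0 may hide a read that was left out. Replicate 1 of the G604R, D619N and N359H inputs held 9395, 17118 and 148205 reads in total, far below the other inputs, so that 3 reads were worth 319, 175 and 20.2 RPM (reads of a miRNA scaled to the total reads of the library) in them. Shares below are percent of the mature miRNA reads of a library, and intervals and limits for values at 0 cover counting error only. As the lysates are pooled cells, fewer cells holding a miRNA and less of it per cell cannot be told apart.

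In the lysates the Mir-17 guides formed 1.35% to 3.02% of the mature miRNA reads of a library, the lowest value on 6 family reads. Their summed share was 2.12% ± 0.375 (SD, n = 3) in the WT input, 2.58% ± 0.304 in F182del, 2.42% ± 0.139 in N359H, 1.99% ± 0.617 in G604R, 2.06% ± 0.595 in D619N and 2.20% ± 0.787 with the empty vector (n = 3 each). The WT inputs were at 1.75%, 2.50% and 2.11%, and every other input group overlapped with them. In the WT input the order was led by miR-93-5p at 0.801% ± 0.155 (SD, n = 3), followed by miR-20a-5p at 0.486% ± 0.0986, miR-17-5p at 0.386% ± 0.236, miR-106b-5p at 0.263% ± 0.0400, miR-18a-5p at 0.104% ± 0.0373, miR-106a-5p at 0.0501% ± 0.0208 and miR-106b-3p at 0.0284% ± 0.0492. Only the step from miR-93-5p, at 0.639% to 0.947%, to miR-20a-5p, at 0.394% to 0.590%, and the step from miR-106b-5p to miR-18a-5p were larger than the spread of the 3 libraries. The ranges of miR-18a-5p, 0.0745% to 0.146%, and miR-106a-5p, 0.0319% to 0.0728%, did not overlap either. They stood on 4 to 7 and 2 to 3 reads per library, and the step between them was smaller than the spread of miR-18a-5p.

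**Figure D1:**
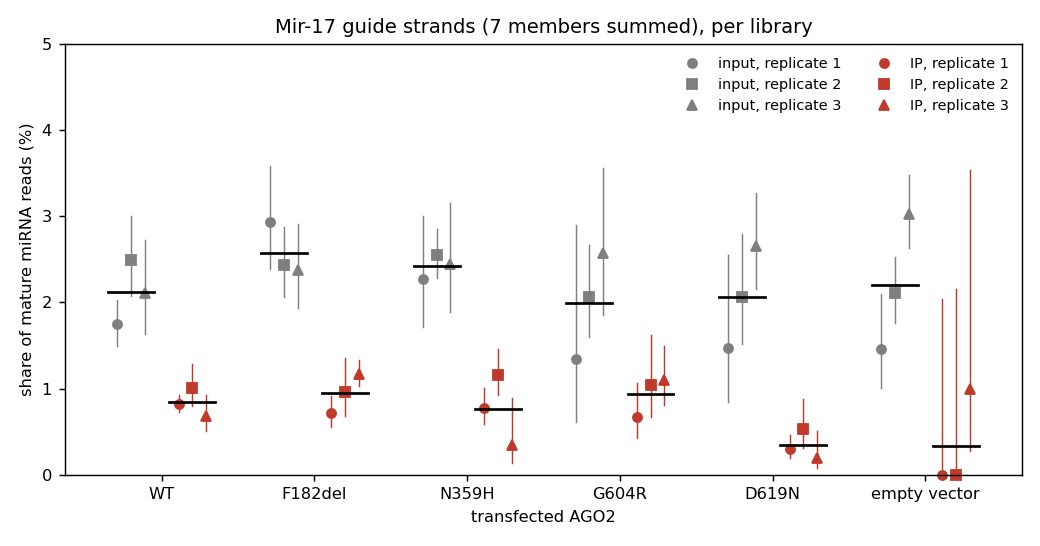
Summed share of the 7 Mir-17 guide strands in percent of mature miRNA reads (y axis) in each library, by transfected AGO2 (x axis), in input (grey) and IP (red), with 95% Wilson intervals as thin lines and group means as black bars. Every AGO2 IP library lies below the input of the same replicate, and the D619N IP libraries at 0.199% to 0.527% lie below the WT IP libraries at 0.688% to 1.01%. The D619N IP libraries hold 21, 14 and 4 family reads, and the interval of replicate 2, 0.314% to 0.883%, overlaps with those of the WT IP libraries. The summed share was not tested.

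The inputs of the 4 variants and of the empty vector were compared with the WT input to ask whether the cells themselves held different levels. None of the members tested, 6 or 7 per comparison, passed the thresholds of limma (adjusted p below 0.05 by Benjamini-Hochberg over all rows tested and an absolute log2 fold change above 1, on log2 of scaled RPM + 1) in any of these 5 comparisons. No row of the table did either, 0% of 105 to 114 rows tested per comparison, and at an unadjusted p below 0.05 the count was 0 members in 4 comparisons and 1 in D619N. That member was miR-106a-5p, at 0 reads in all 3 D619N inputs, with a log2 fold change of -1.81 (SE 0.63, adjusted p = 0.805, limma), and it passed without WT input replicate 3 (-1.75, adjusted p = 0.0152). The 0 counts allow shares of up to 0.367%, 0.155% and 0.0917% of the D619N inputs, above the 0.0319%, 0.0454% and 0.0728% that the WT inputs held, so a difference was not detectable at this depth. On scaled RPM the input libraries of miR-106b-5p lay above all 3 WT inputs in F182del, as 5.26% of rows did, and in N359H, as 4.72% did, at log2 fold changes of 0.70 (SE 0.35, adjusted p = 0.778) and 0.36 (SE 0.41, adjusted p = 0.975). In G604R the log2 fold change was 0.83 (SE 0.45, adjusted p = 0.531). Its libraries overlapped with WT on scaled RPM, while by share they were at 0.448%, 0.479% and 0.735%, above the WT inputs at 0.277%, 0.295% and 0.218%. The 0.448% stood on 2 of 446 mature miRNA reads. How many of all rows lay apart by share was not counted, so no result is drawn from this.

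In the precipitates the family took a smaller share of the miRNA reads than in the lysate, in all 15 pairs of IP and input of an AGO2 replicate. The IP share was 0.839% ± 0.163 (SD, n = 3) in WT, 0.948% ± 0.230 in F182del, 0.760% ± 0.407 in N359H, 0.940% ± 0.234 in G604R and 0.344% ± 0.168 in D619N. As a ratio to the matched input, the IP share came to 0.469, 0.405 and 0.326 in WT, to 0.243, 0.395 and 0.493 in F182del, to 0.339, 0.456 and 0.142 in N359H, to 0.4998, 0.506 and 0.429 in G604R, and to 0.207, 0.256 and 0.0748 in D619N. In the IP of the empty vector, which measures the background of the precipitation, the family had 0, 0 and 2 reads, the latter of miR-93-5p in replicate 3, and 0 reads there allow shares of up to 1.63% and 1.72%. A level of the family in the background could therefore not be read.

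The ratio of IP to input ranged widely among the members, and whether it differed between them was not tested. The share of miR-20a-5p in the WT IP was 0.0455%, 0.0933% and 0.0655%, against 0.394%, 0.590% and 0.473% in the WT input, ratios of 0.115, 0.158 and 0.138. It was lower in IP in 14 of the 15 pairs and at 0 in both libraries of the remaining one, replicate 1 of G604R. The most abundant member, miR-93-5p, kept more of its share, at 0.455%, 0.576% and 0.393% in the WT IP against 0.639%, 0.817% and 0.947% in the WT input. Lower in IP were also miR-106b-5p in 14 of 15 pairs, miR-17-5p and miR-93-5p in 12 each, miR-18a-5p in 11 and miR-106a-5p in 9 with 6 pairs at 0 in both libraries. The pairs of miR-106b-3p were mixed, higher in IP in 7, lower in 3 and at 0 in both libraries of 5. Of the 7, only WT replicate 1 had reads in the input. In some of the others the 0 reads of the input allow more than the IP held, so their direction cannot be read. In replicate 1 of G604R the IP was at 0.0747% and the input allows up to 0.673%. In replicate 3 of WT these were 0.0328% and 0.109%.

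**Figure D2:**
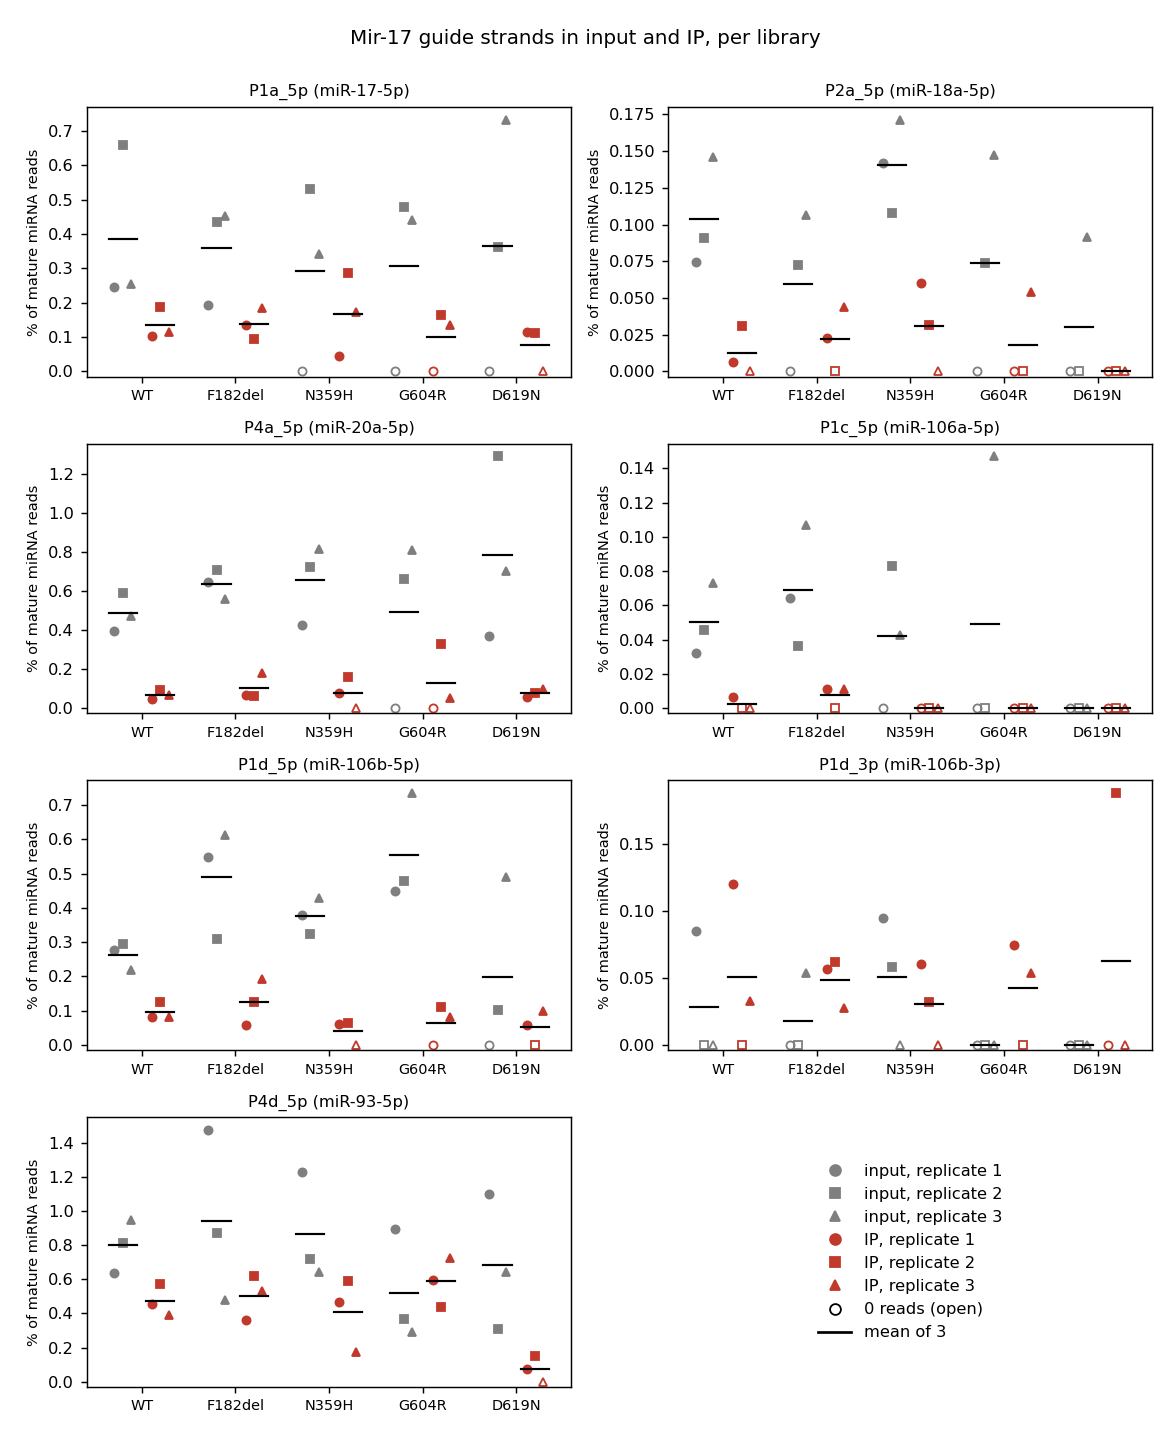
Share of each Mir-17 guide strand in percent of mature miRNA reads (y axes, one scale per panel) in input (grey) and IP (red) of the 5 AGO2 groups (x axes), with open symbols for libraries at 0 reads and bars for the mean of 3. The red points of miR-20a-5p stand below the grey points of the same replicate in 14 of 15 pairs, while those of miR-106b-3p do so in 3.

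Each IP was compared with its own input by limma, after scaling over the miRNAs present in all libraries of the comparison, to ask how the members stood relative to the other miRNAs. In WT, 1 of 7 members was called lower, against 3.97% of all rows tested called lower and 11.9% called in either direction. This was miR-20a-5p, at a log2 fold change of -2.52 (SE 0.43, adjusted p = 0.00654), the second lowest of 126 rows. In F182del, 2 of 7 members were called lower (7.58% of rows called lower, 23.5% called), miR-20a-5p at -2.32 (SE 0.45, adjusted p = 0.000983) and miR-106b-5p at -1.65 (SE 0.48, adjusted p = 0.0179). The same 2 of 7 were called lower in N359H (8.33% of rows called lower, 11.7% called), at -3.69 (SE 0.94, adjusted p = 0.00939) and -3.46 (SE 1.09, adjusted p = 0.0288). In D619N, 1 of 4 members tested was called lower (4.85% of rows called lower, 17.5% called), miR-20a-5p at -2.67 (SE 0.63, adjusted p = 0.0305). In G604R none of 6 members tested was called (8.57% of rows called, 0% called lower), and 1 had an unadjusted p below 0.05 by limma, miR-106b-5p at -3.40 (SE 1.15, adjusted p = 0.128), the lowest of 105 rows.

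The median log2 fold change of the members tested was -1.18 in WT, -0.94 in F182del, -2.27 in N359H, -1.21 in G604R and -1.89 in D619N, beside 0.28, 0.29, -0.31, 0.48 and 0.06 over all rows tested. These directions are relative to the other miRNAs. On RPM as deposited, which relate to all reads of a library, of which mature miRNAs were a larger part in IP in every pair but replicate 1 of G604R (2.78% against 4.75%), the median of all rows tested moved to 3.74 in WT and 2.71 in F182del, and miR-20a-5p was at 1.16 in WT and at 0.65 in F182del, and miR-93-5p rose to 3.28 (adjusted p = 0.00040) and 2.63 (adjusted p = 3.526e-05). As IP and input of one number come from one lysate, a fit with the replicate as a block was also made. It called miR-17-5p lower in WT as well (-1.13, adjusted p = 0.0384) and lost miR-20a-5p in D619N (adjusted p = 0.0901).

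Several of these calls rested on single libraries. For miR-20a-5p the call was lost in WT without WT IP replicate 1 (-2.30, adjusted p = 0.0542), in N359H without input replicate 2 or 3 (-3.75 and -3.74, adjusted p = 0.184 and 0.0535), and in D619N without IP replicate 1 (-2.45, adjusted p = 0.0720) or input replicate 2 or 3 (-2.30 and -2.64, adjusted p = 0.0697 and 0.0774). For miR-106b-5p it was lost in F182del without IP replicate 1 (-1.28, adjusted p = 0.0963) or input replicate 3 (-1.54, adjusted p = 0.0782), and in N359H without IP replicate 2 (-3.86, adjusted p = 0.0597) or input replicate 1, 2 or 3 (-3.47, -3.74 and -3.61, adjusted p = 0.165, 0.169 and 0.201). The F182del call of miR-20a-5p passed in every fit that left out 1 library. Calls were gained for miR-17-5p in F182del without input replicate 1 (-1.46, adjusted p = 0.0294), miR-18a-5p in WT without IP replicate 2 (-2.88, adjusted p = 0.0375), miR-106a-5p in N359H without input replicate 1 (-3.43, adjusted p = 0.0390), miR-93-5p in N359H without input replicate 3 (-1.24, adjusted p = 0.0208), and miR-106b-3p, higher, in G604R without IP replicate 2 (3.22, adjusted p = 0.000415).

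A fit over all 30 AGO2 libraries with the genotype as a term, added after the single comparisons had been seen, called 4 of 7 members lower in IP, against 14.1% of 135 rows called lower and 34.8% called. These were miR-20a-5p at -2.52 (SE 0.55, adjusted p = 0.000447), miR-106b-5p at -2.08 (SE 0.55, adjusted p = 0.00238), miR-106a-5p at -1.66 (SE 0.41, adjusted p = 0.00137) and miR-18a-5p at -1.64 (SE 0.56, adjusted p = 0.0173). Over the 15 AGO2 IP libraries miR-106a-5p had 5 reads, in 3 libraries, and miR-18a-5p had 22, in 7. With a pseudocount of 10 RPM miR-106a-5p and miR-18a-5p were at -0.50 and -0.63 and not called. The fold changes of miR-93-5p, -0.91 (SE 0.39, adjusted p = 0.0582), and miR-17-5p, -0.73 (SE 0.71, adjusted p = 0.397), did not pass. Scaled to the sum of mature miRNAs, miR-93-5p was called lower as well (-1.32, adjusted p = 0.0166), and without D619N it was at -0.27 (adjusted p = 0.344). Without the 3 shallow inputs miR-17-5p also passed (-1.87, adjusted p = 0.00206). Of the 2 arms of the MIR106B hairpin, miR-106b-3p was at 1.40 (SE 0.60, adjusted p = 0.0582), and with the replicate block it was called higher (adjusted p = 0.0310).

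**Figure D3:**
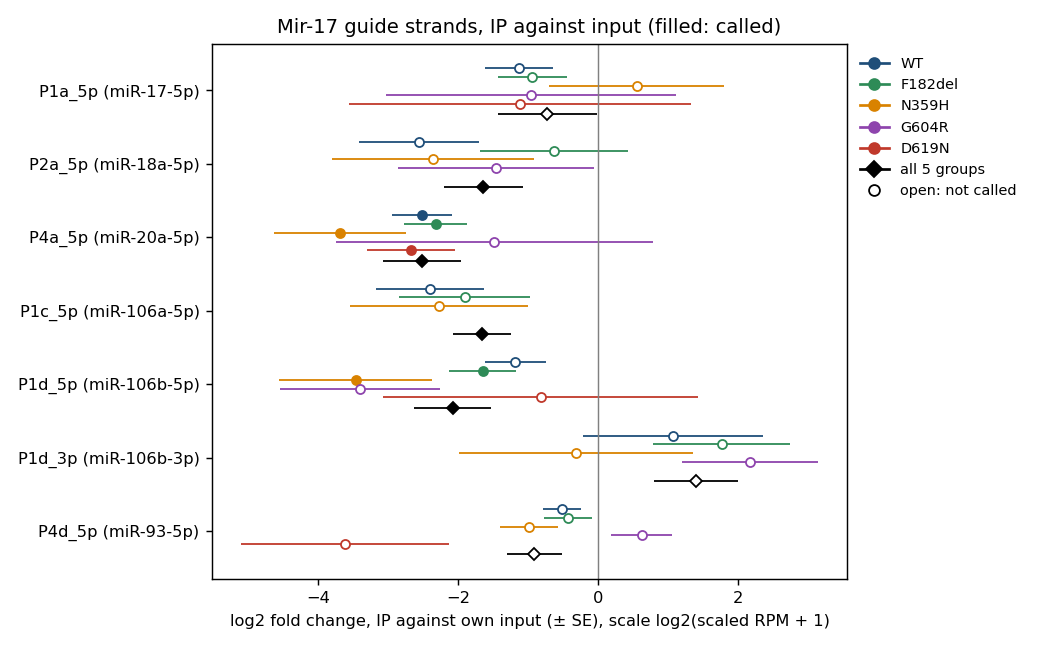
Log2 fold change of IP against own input (x axis, ± SE, on log2 of scaled RPM + 1) for each Mir-17 guide strand (y axis), by AGO2 group in colour and over all 5 groups as diamonds, filled where called. The 4 filled circles of miR-20a-5p lie between -3.69 and -2.32, and the open diamond of miR-106b-3p lies at 1.40. Members that did not pass the filter on low values have no point.

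The make-up of the family was also set side by side in lysate and precipitate. Reads of miR-93-5p outnumbered those of miR-20a-5p by 1.62, 1.38 and 2 to 1 in the WT inputs and by 10, 6.17 and 6 to 1 in the WT IP, a ratio within a library that no scaling touches. It was higher in IP than in the input of the same replicate in all 10 pairs of WT, F182del, N359H and G604R in which both libraries had reads of miR-20a-5p. In D619N it was higher in 1 pair and lower in 2, at 1.25, 2 and 0 in IP against 3, 0.240 and 0.913 in the input. This pair of members was not among the planned comparisons. It sets the most abundant member beside the one called lower in most groups of the same libraries, so the 10 pairs are a description and add no separate evidence. Of the family's reads, miR-93-5p held 56.5% ± 0.860 (SD, n = 3) in the WT IP, 53.5% ± 9.89 in F182del, 53.8% ± 6.04 in N359H, 65.6% ± 23.4 in G604R and 17.5% ± 15.3 in D619N. In the inputs it held 38.0% ± 6.18 in WT, 35.5% ± 15.2 in F182del, 36.3% ± 15.5 in N359H, 32.0% ± 30.2 in G604R and 38.0% ± 32.3 in D619N.

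**Figure D4:**
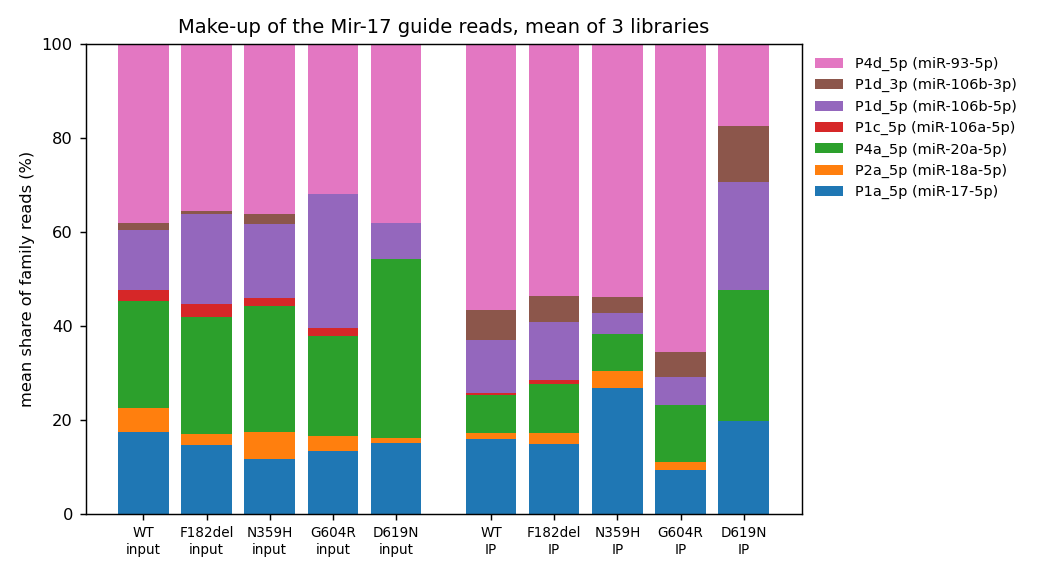
Mean share of each member in the reads of the Mir-17 guides (y axis, percent, mean of 3 libraries) in the 5 AGO2 groups, inputs on the left and IP on the right. miR-93-5p takes 53.5% to 65.6% in the IP of WT, F182del, N359H and G604R and 17.5% in D619N, whose IP libraries hold 4 to 21 family reads each.

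The central comparison of the study sets the IP of each variant against the IP of WT. These 4 comparisons share the 3 WT libraries. None of the 7 members tested was called for F182del (6.02% of rows called), and none of 6 members for N359H (0% of 123 rows called, 6 with an unadjusted p below 0.05), G604R (4.88% called) or D619N (14.6% called, 11.4% called lower). By limma 0 members had an unadjusted p below 0.05 in any of the 4, and miR-106a-5p did not pass the filter on low values in the last 3. The median log2 fold change of the members tested was 0.52 in F182del, -0.28 in N359H, -0.68 in G604R and -2.17 in D619N, beside 0.01, -0.56, -0.34 and -1.18 over all rows tested.

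The largest difference of a member was that of miR-93-5p in D619N. Its share was 0.0725%, 0.151% and 0% of the mature miRNA reads in the D619N IP, on 5, 4 and 0 reads, against 0.455%, 0.576% and 0.393% in the WT IP, on 140, 37 and 24 reads. All 3 D619N libraries lay below all 3 WT libraries, as did 26% of all rows tested in this comparison, and the ratio of the mean shares was 0.157. The 95% Wilson intervals were 0.0310% to 0.170%, 0.0586% to 0.387% and 0% to 0.191% in D619N, and 0.385% to 0.536%, 0.418% to 0.792% and 0.264% to 0.584% in WT, so D619N replicate 2 overlaps with WT replicates 1 and 3. The log2 fold change was -4.11 (SE 1.71) and did not pass (adjusted p = 0.128, limma). The value hung on D619N IP replicate 3, which had 16636 reads in all: without it the fold change was -1.95 and passed (adjusted p = 0.0261). It also passed with a pseudocount of 10 RPM (-2.93, adjusted p = 0.0329) and with all AGO2 groups of the IP in one fit (-3.76, adjusted p = 0.0499). Over all alternatives the adjusted p ranged from 0.0261 to 0.337 and the fold change from -5.34 to -1.95.

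**Figure D5:**
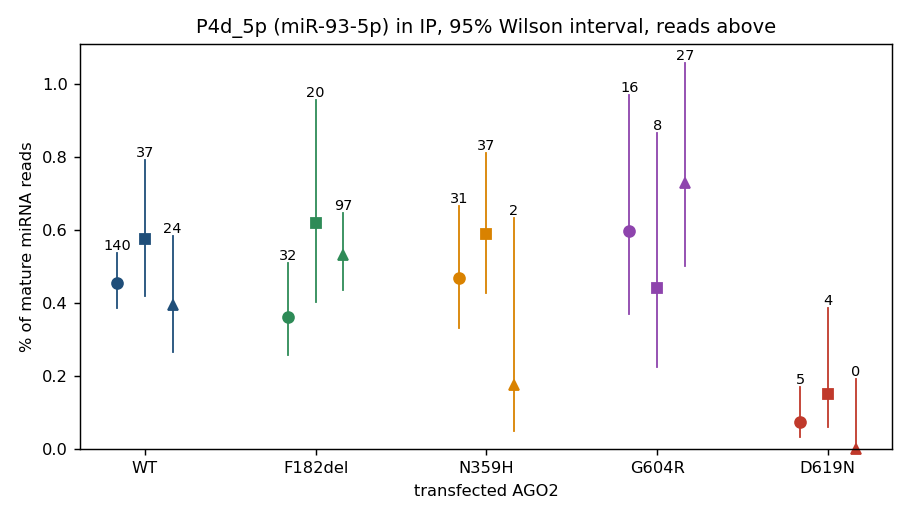
Share of miR-93-5p in percent of mature miRNA reads (y axis) in each IP library of the 5 AGO2 groups (x axis), with 95% Wilson intervals and the number of reads above each point. The D619N libraries, with 5, 4 and 0 reads, lie below the 3 WT libraries, while N359H replicate 3 stands on 2 reads.

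In the other variants miR-93-5p overlapped with WT. Its IP share was 0.362%, 0.620% and 0.531% in F182del, 0.469%, 0.589% and 0.174% in N359H, and 0.598%, 0.440% and 0.727% in G604R. The log2 fold changes were 0.12 (SE 0.27), -0.29 (SE 0.46) and 0.14 (SE 0.29), with adjusted p of 0.811, 0.793 and 0.820. In the D619N input miR-93-5p was at 1.10%, 0.309% and 0.642%, which overlapped with the WT input (log2 fold change -0.54, SE 0.38, adjusted p = 0.926).

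None of the other members tested passed in the D619N IP against the WT IP. The share of miR-20a-5p in the D619N IP, 0.0580%, 0.0753% and 0.0995%, lay around that of WT at 0.0455%, 0.0933% and 0.0655%, with a log2 fold change of 0.25 (SE 0.64, adjusted p = 0.819). For miR-17-5p the D619N values were 0.116%, 0.113% and 0% and the log2 fold change was -2.19 (SE 1.82, adjusted p = 0.432), and without D619N IP replicate 3 it was 0.0035. For miR-18a-5p all 3 D619N IP libraries were at 0 reads (log2 fold change -2.28, SE 1.07, adjusted p = 0.163), which allows up to 0.0435%, 0.113% and 0.149%, while WT was at 0.00649%, 0.0311% and 0%. It passed without WT IP replicate 3 (-3.62, adjusted p = 0.00415), although a difference at these shares was not detectable at this depth. Values of miR-106b-5p (-2.16, SE 1.71, adjusted p = 0.413) and miR-106b-3p (-1.27, SE 2.49, adjusted p = 0.750) overlapped between the groups.

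In N359H, miR-106b-5p was at 0.0605%, 0.0637% and 0% of the IP against 0.0812%, 0.124% and 0.0819% in WT, and its libraries lay below those of WT, as 8.13% of rows did. The N359H values stood on 4, 4 and 0 reads. The 0 reads in replicate 3 allow up to 0.261%, above all the WT values, so the groups were not shown to be apart. The log2 fold change of -2.22 (SE 1.78, adjusted p = 0.793) did not pass. In F182del and G604R the values of all members overlapped with WT. In G604R, replicate 1 of the IP had 0 reads of miR-17-5p, miR-20a-5p and miR-106b-5p beside 16 reads of miR-93-5p.

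Whether the step from input to IP itself differed from that of WT was tested by the interaction of fraction and variant. No member was called for F182del (0.741% of rows called), N359H (0% of 130 rows called, 5 with an unadjusted p below 0.05) or G604R (1.54% called), and by limma 0 members had an unadjusted p below 0.05 in these. In D619N, 1 of 7 members was called (3.94% of rows called, 0.787% called higher). This was miR-106a-5p at 2.71 (SE 0.63, adjusted p = 0.0284), although it had 0 reads in all 6 D619N libraries, so the value is the step in WT, from 3, 2 and 2 reads in the input to 2, 0 and 0 in IP, with its sign turned. With the replicate block it was not called (adjusted p = 0.165). For miR-93-5p in D619N the interaction was -3.02 (SE 1.44, adjusted p = 0.287).

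The only passenger strand of the family in the table was Hsa-Mir-17-P4d_3p*, or miR-93-3p, the partner of miR-93-5p in the MIR93 hairpin. Its sequence is given to show that it shares no seed with the guides.
Hsa-Mir-17-P4d_3p* (miR-93-3p): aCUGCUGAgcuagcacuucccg

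It was read 7, 3 and 3 times in the WT IP, 5, 4 and 11 times in F182del, 4, 0 and 0 times in N359H, 3, 0 and 0 times in G604R and never in D619N. In the inputs of the AGO2 groups it had 2 reads in 1 WT library and 2 in 1 N359H library, beside 122 and 128 reads of miR-93-5p over the 3 libraries. Over the 5 AGO2 groups the passenger was called higher in IP than in input, as 20.7% of rows were, at 1.58 (SE 0.45, adjusted p = 0.00482), while the guide was not called. With a pseudocount of 10 RPM the passenger was at 0.49 and not called. In the F182del comparison it was called higher in IP at 3.20 (SE 0.90, adjusted p = 0.0145), as 15.9% of rows were. It had 0 reads in all 3 F182del inputs, which allows up to 0.0966%, 0.0545% and 0.0801%, against 0.0565%, 0.124% and 0.0602% in the F182del IP. Against WT IP it was called lower in D619N (log2 fold change -4.68, SE 0.68, adjusted p = 0.00444). With 0 reads, the D619N libraries allow up to 0.0435%, 0.113% and 0.149%, and the WT libraries were at 0.0227%, 0.0467% and 0.0491%. Despite the call, a difference at these shares was therefore not detectable at this depth, and no size of it can be given. The other arm of MIR106B showed a like shift in reads, with 39 of miR-106b-3p to 38 of miR-106b-5p over the WT IP libraries and 8 to 45 over the WT inputs, but 37 of the 39 were in WT IP replicate 1.

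The families that share clusters with these members, Mir-19 and Mir-92, gave 9 rows, while no row of the seed-related Mir-430 family was in the table. Their miRNAs carry other seeds and are in part cut from the same transcripts. None was called lower in IP than in input in any of the 5 AGO2 groups. In D619N 4 of 9 were called higher in IP (12.6% of rows called higher), led by Hsa-Mir-92-P2d_5p*, at 0 in all D619N inputs, with 5.30 (SE 1.07, adjusted p = 0.0276), and followed by Hsa-Mir-92-P1c_3p with 1.36 (SE 0.16, adjusted p = 0.00512). The 4 rows may not be independent. They include both arms of the hairpin of Hsa-Mir-92-P2d_5p*. Hsa-Mir-92-P1c_3p and the remaining row had close scaled means, 5092 and 5179 RPM in IP and 1999 and 2082 RPM in input. In F182del 2 of 9 (15.9% of rows called higher) and in G604R 1 of 8 (8.57%) were called higher, in WT and N359H 0 of 8 by limma, with 2 and 3 at an unadjusted p below 0.05. In the D619N IP against the WT IP, Hsa-Mir-92-P2d_3p was called higher (1.25, SE 0.24, adjusted p = 0.0141) and Hsa-Mir-92-P1d_3p lower (-1.18, SE 0.25, adjusted p = 0.0209). The median of the 8 tested was 0.47, beside -2.17 for the Mir-17 guides.

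The rows whose condition means followed the summed guides most closely were Hsa-Mir-148-P1_3p (Pearson r = 0.848), Hsa-Mir-10-P1b-v1_5p (r = 0.804) and Hsa-Mir-27-P2_3p (r = 0.802), over the 12 conditions and among 31 rows above 0 in all of them. Each of these conditions is a mean of 3 libraries, and inputs and precipitates form separate clusters. Within the 6 IP conditions r was 0.222, 0.811 and -0.0693, and within the 6 input conditions -0.693, 0.159 and -0.191. Of these 3 rows, only Hsa-Mir-10-P1b-v1_5p thus had a high r within the precipitates, and none had one within the inputs. Other rows went higher within the precipitates, up to r = 0.976. The empty vector IP, whose family mean of 0.330% stood on 2 reads, is among the IP conditions, and r without it was not computed. In the WT samples, Hsa-Mir-148-P1_3p went from 2.74% of the input to 1.26% of the IP, and the Mir-17 guides from 2.12% to 0.839%.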

How the data were processed

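Small RNA from input and anti-HA IP of HEK293T cells (12 conditions, 3 replicates each) was sequenced by the authors as single-end reads and processed with sRNAbench and MirGeneDB annotation. The labels name GRCh38. The deposited values are RPM, which the authors computed relative to the total reads of a library. How reads matching several miRNAs were shared is not given in the sources used here. All values above 0 were whole multiples of the RPM of 1 read (tolerance 0.001 reads), from which reads per value were inferred for shares, Wilson intervals at the 95% level and limits of 3 reads. As this does not establish unadjusted counts, no count model was fitted, unlike in the study.

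For comparisons, libraries were scaled by median-of-ratios factors from the miRNAs present throughout a fit, 1 RPM was added, and log2 values were fitted by limma 3.58.1 in R 4.3.3 (lmFit, trended eBayes). Rows at 1 scaled RPM or more in at least 2 libraries of a group were tested over the whole table, with Benjamini-Hochberg adjustment. Fits were also run on simulated data with known changes, and how many of these were recovered is not reported here. Alternatives were a pseudocount of 10 RPM, no filter, other scalings, collapsed identical rows, a replicate block, one fit per fraction and each library left out.

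IP and input of a number come from one lysate and are paired by design. Between variant and WT, correlations of deviations from group means were above 0.1 for all 3 numbers in F182del IP (0.342, 0.177 and 0.113) and in the inputs of F182del, N359H and the empty vector. No 2 libraries were identical. The 3 pairs of empty vector IP libraries, of 36 replicate pairs, did not differ detectably in a chi-square test of 12 to 14 rows (p = 0.872, 0.968 and 0.204), at 174 to 202 reads, and were kept as separate libraries.

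Named are all members, the passenger of the family, within the Mir-19, Mir-92 and Mir-430 rows at most 2 called rows per comparison, and the 3 rows most like the family. Members and lists were chosen with earlier results of these data known. Sequences are from RefSeq (GRCh38.p14) and host genes from GENCODE release 29.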

Additional observations from a re-analysis of the deposited data

Results flagged for a closer look

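The step of Hsa-Mir-17-P1c_5p (miR-106a-5p) from input to IP differed between D619N and WT in the test of the interaction of fraction and variant, at 2.71 on the log2 scale (SE 0.63, adjusted p = 0.0284, limma, n = 3 libraries per group). The member had 0 reads in all 6 D619N libraries, and 3, 2 and 2 reads in the WT inputs against 2, 0 and 0 in the WT IP. It was not called in 11 of the 18 alternatives, whose adjusted p ranged from 0.000673 to 0.921, and 0 reads in the D619N inputs allow shares above those of the WT inputs. No other value met a rule for a closer look, and groups of 3 libraries are too small for the test of single outlying samples.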

How the results depend on the processing

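Of 324 alternative values of counts and shares, 289 stayed the same by direction and size and 35 moved. With a pseudocount of 10 RPM the number of members called became 1 in D619N IP against WT IP, 1 in G604R IP against input, 2 in D619N IP against input, 0 in the D619N interaction and 2 in the fit over the 5 AGO2 groups. With all AGO2 groups in one fit it was 1 in D619N IP against WT IP. With the replicate block it was 2 in WT IP against input, 0 in D619N IP against input and 0 in the D619N interaction, and the block changed no other count by over 1.5 times. Without the filter on low values the D619N interaction called 0. Leaving out 1 library at a time gave 0 to 1 members in D619N IP against WT IP and in D619N input against WT input, 0 to 2 in WT IP against input, 1 to 3 in F182del, 0 to 2 in N359H, 0 to 1 in G604R and 0 to 1 in D619N, and 0 to 1 in the D619N interaction, while the other comparisons stayed at 0.

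RPM as deposited turned most directions of IP against input, since these values relate to all reads of a library rather than to its miRNAs. It called 3 members higher in WT, 4 higher in F182del and 0 in D619N, and 0 in the D619N interaction. In N359H the count stayed at 2, but the calls were miR-17-5p and miR-93-5p, both higher, in place of miR-20a-5p and miR-106b-5p, both lower. In the fit over the 5 AGO2 groups it called 3 higher and 0 lower. The log2 fold changes that turned in IP against input were those of miR-17-5p (2.57 in WT, 2.02 in F182del, 0.91 in G604R, 1.39 in D619N), miR-20a-5p (1.16 in WT, 0.65 in F182del, 0.41 in G604R, 0.13 in D619N), miR-106b-5p (2.47 in WT, 1.32 in F182del, 2.27 in D619N), miR-18a-5p (0.40 in WT, 1.10 in F182del, 0.41 in N359H), miR-93-5p (3.28 in WT, 2.63 in F182del, 2.51 in N359H) and miR-106b-3p (1.61 in N359H). In the fit over the 5 AGO2 groups they were 2.17 for miR-17-5p, 0.64 for miR-106b-5p, 0.24 for miR-18a-5p, 0.33 for miR-20a-5p and 1.77 for miR-93-5p. Against WT IP, F182del turned for miR-17-5p (-0.71), miR-106b-5p (-0.51), miR-18a-5p (-0.15), miR-20a-5p (-0.26) and miR-93-5p (-0.68), and G604R for miR-93-5p (-0.97). Against WT input, miR-93-5p turned in D619N (0.97), F182del (-0.020), G604R (0.30) and N359H (0.64). Interactions that turned were those of miR-17-5p (-1.18 in D619N, -0.56 in F182del, -1.66 in G604R), miR-20a-5p (-0.51 in F182del, -0.76 in G604R), miR-106b-5p (-0.20 in D619N), miR-106a-5p (-0.40 in G604R, -0.63 in N359H), miR-18a-5p (-1.10 in D619N, -0.40 in G604R), miR-93-5p (-0.66 in F182del, -1.27 in G604R) and miR-106b-3p (-0.48 in D619N).

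In all, 167 of 1625 alternative values of single members changed sign, and outside RPM as deposited none of these belonged to a value that was called. With a pseudocount of 10 RPM, miR-18a-5p turned in G604R IP against WT IP (0.026) and in the empty vector input (0.013), miR-17-5p in N359H IP against input (-0.16) and in the D619N interaction (-0.021), and miR-106a-5p (-0.083) and miR-20a-5p (-0.060) in the F182del interaction. Scaled to the sum of mature miRNAs, miR-106b-3p turned in G604R IP against WT IP (0.0037), miR-93-5p in N359H input (0.070) and in the F182del interaction (-0.039), and miR-17-5p in the D619N interaction (-0.044). With identical rows collapsed, miR-93-5p turned in the F182del interaction (-0.0054), and with all groups of the IP in one fit miR-106b-3p did in G604R (0.051).

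The following ranges are those of members whose sign changed in at least 1 fit that left out 1 library. For IP against input, miR-17-5p ranged from -3.34 to 0.56 in D619N, -2.81 to 0.46 in G604R and -1.44 to 2.0 in N359H, miR-106b-5p from -2.59 to 0.82 in D619N, miR-18a-5p from -1.86 to 0.13 in F182del and miR-106b-3p from -1.74 to 0.87 in N359H. Against WT IP, F182del ranged from -0.11 to 0.39 for miR-17-5p, -0.057 to 0.61 for miR-106b-5p, -0.34 to 2.01 for miR-18a-5p, -0.086 to 0.20 for miR-93-5p and -0.46 to 2.34 for miR-106b-3p. G604R ranged from -2.92 to 0.0041 for miR-17-5p, -2.59 to 0.83 for miR-20a-5p, -1.87 to 0.34 for miR-18a-5p, -0.050 to 0.37 for miR-93-5p and -1.57 to 1.45 for miR-106b-3p. N359H ranged from -0.47 to 0.81 for miR-17-5p, -2.40 to 0.89 for miR-20a-5p, -0.058 to 2.67 for miR-18a-5p, -0.63 to 0.33 for miR-93-5p and -1.93 to 1.39 for miR-106b-3p, and D619N from -3.22 to 0.0035 for miR-17-5p. Against WT input, miR-17-5p ranged from -2.22 to 0.45 in D619N, -0.32 to 0.33 in F182del, -2.02 to 0.21 in G604R and -2.03 to 0.17 in N359H. There miR-20a-5p ranged from -0.14 to 0.86 in D619N, -2.14 to 0.42 in G604R and -0.33 to 0.19 with the empty vector, miR-106a-5p from -0.016 to 0.46 in F182del, -0.88 to 0.14 in N359H and -0.96 to 0.087 with the empty vector, miR-93-5p from -0.37 to 0.46 in F182del and -0.32 to 0.13 in N359H, and miR-18a-5p from -0.33 to 0.38 with the empty vector. In the interactions miR-17-5p ranged from -2.11 to 1.56 in D619N, -0.38 to 0.39 in F182del, -1.77 to 1.46 in G604R and -0.37 to 2.88 in N359H, and miR-20a-5p from -0.69 to 0.25, -0.30 to 0.37, -1.13 to 2.28 and -1.97 to 0.36 in the same order. The interaction of miR-106b-5p ranged from -1.29 to 1.88 in D619N, that of miR-106a-5p from -0.16 to 0.57 in F182del and -0.71 to 1.19 in N359H, that of miR-18a-5p from -0.20 to 1.92 in G604R and -0.36 to 1.36 in N359H, that of miR-93-5p from -0.41 to 0.41 in F182del and -0.85 to 0.16 in N359H, and that of miR-106b-3p from -1.18 to 1.46 in D619N, -0.22 to 1.83 in F182del and -0.047 to 2.12 in G604R. The cause of these changes was not tested. Depth limits the members where 3 reads were worth most, on average 112 RPM in the empty vector IP, 109 in the G604R input, 91.2 in the D619N IP, 64.1 in the N359H IP and 61.1 in the D619N input.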
